A study of Mus musculus with 6 samples.

Results

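The miR-99/100 family of the mouse is encoded by 3 hairpins, Mir99a, Mir99b and Mir100, each of which can give a mature miRNA from its 5p arm and another from its 3p arm. The members were chosen by name, as every row whose name starts with mmu-miR-99a-, mmu-miR-99b- or mmu-miR-100-. This gave 6 miRNAs, both arms of each hairpin, of 810 miRNAs in the count table. They were measured in small extracellular vesicles (sEV) that cochlear explants had released into the culture medium. The explants were sensory epithelium, with the spiral ganglion removed, from ICR mice at postnatal day 3. Cis-sEV came from explants treated with 50 µM cisplatin, a platinum drug that damages the hair cells of the inner ear, for 48 h. Ctrl-sEV came from explants given an equal volume of PBS for the same 48 h, and both groups were kept in medium with sEV-free serum. Each group had 3 libraries, each made from the sEV of about 80 pooled explants, so a p-value measures the spread between such pools.

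In a miRNA hairpin, the enzyme Dicer cuts out a duplex of the 5p and the 3p arm, and usually 1 arm is kept in the Argonaute protein while the other is degraded. A miRNA recognises its target mRNAs mainly through its seed, bases 2 to 8 from the 5′ end. The miR-99/100 family is conserved among animals, its 5p arms are the abundant form, and its best known target is the mTOR kinase, a regulator of cell growth. Each family gene lies upstream of a let-7 gene and a miR-125 gene, with which it can be transcribed as 1 primary RNA.

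The mature sequences are shown because the comparison of members and arms rests on how alike they are. They are written 5′ to 3′ with the seed in capitals.
mmu-miR-99a-5p: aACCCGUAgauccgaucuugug
mmu-miR-99b-5p: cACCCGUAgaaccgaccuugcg
mmu-miR-100-5p: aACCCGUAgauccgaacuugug
mmu-miR-99a-3p: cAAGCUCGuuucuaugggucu
mmu-miR-99b-3p: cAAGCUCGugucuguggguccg
mmu-miR-100-3p: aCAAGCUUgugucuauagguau
The 3 members from the 5p arm share the seed ACCCGUA. Counted from the 5′ end, miR-100-5p and miR-99a-5p differ by A16U alone, 1 base of 22, so a read that is short or carries an error there could be counted for either of them, and their division is uncertain. From miR-99a-5p to miR-99b-5p the differences are A1C, U11A, U16C and U21C, which makes miR-99b-5p the member that reads can tell apart best. On the 3p side, miR-99a-3p and miR-99b-3p share the seed AAGCUCG, whereas miR-100-3p has the seed CAAGCUU. Read from its base 2, miR-100-3p has 6 bases (CAAGCU) in common with the start of the other 3p members, so its annotated 5′ end lies 1 base further upstream.

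The hairpins are shown with both arms in capitals, 5′ to 3′.
Mir99a: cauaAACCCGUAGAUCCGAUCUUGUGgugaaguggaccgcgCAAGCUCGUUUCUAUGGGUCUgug
Mir99b: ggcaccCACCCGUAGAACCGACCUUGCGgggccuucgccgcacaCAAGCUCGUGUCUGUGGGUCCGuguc
Mir100: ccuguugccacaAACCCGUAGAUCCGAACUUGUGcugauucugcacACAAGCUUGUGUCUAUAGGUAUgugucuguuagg
In GRCm38.p6, all on the plus strand, Mir99a lies at chr16:77598936-77599000 in an intron of the noncoding host gene Mir99ahg. Mir100 lies at chr9:41531425-41531504 in an intron of the noncoding gene 3110039I08Rik, and overlaps an exon of Gm48742, a lincRNA on the minus strand. Mir99b lies at chr17:17830188-17830257 in an intron of the protein-coding gene Spaca6. The arms are 15, 16 and 12 bases apart in Mir99a, Mir99b and Mir100.

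Depth differed between the groups, from 1722359 to 1794175 reads on miRNAs for Cis-sEV libraries and 528952 to 718597 for Ctrl-sEV libraries. Correspondingly, 586 to 603 miRNAs had a read in a Cis-sEV library against 258 to 311 in a Ctrl-sEV library. All levels are therefore relative to the miRNA reads of a library, in CPM (counts scaled to a common library size). Those of single miRNAs were corrected by TMM factors unless said otherwise, and the sums of cell type miRNAs below were not. TMM scaling would lower these sums in Cis-sEV and raise them in Ctrl-sEV. The hair cell sums, which lie apart here, overlap between the groups on that scale. Less of a miRNA per vesicle cannot be told apart from fewer vesicles of the cells that make it. The edgeR quasi-likelihood test covered 353 miRNAs. A call needed both an adjusted p of 0.05 or less and a log2 fold change of 1 or more in size, and 83 miRNAs (23.5%) were called higher and 23 (6.52%) lower in Cis-sEV. The median log2 fold change was 0.44. The hair cell miRNAs miR-183-5p, miR-96-5p and miR-182-5p summed to 59073 to 81525 CPM in Cis-sEV against 54984 to 55757 CPM in Ctrl-sEV. Of these, 1 was called higher and 0 lower, and they did not all change in the same direction. Pooled over a group and not scaled for depth, miR-96-5p had 74734 reads in Cis-sEV against 4602 in Ctrl-sEV. For miR-182-5p it was 79283 against 18415, and for miR-183-5p 206853 against 76207. Set against all miRNA reads of the deeper Cis-sEV group, miR-96-5p and miR-182-5p were higher there and miR-183-5p was lower. Neuron miRNAs summed to 1962 to 2141 CPM in Cis-sEV against 1081 to 1380 CPM in Ctrl-sEV, where miR-124-3p was at 0. Muscle miRNAs summed to 47.4 to 62.4 against 0 to 2.78 CPM, and erythrocyte miRNAs to 1153 to 1306 against 1509 to 3330 CPM. Of the erythrocyte miRNAs 2 were called lower, while miR-144-3p was at 0 in Ctrl-sEV and read in Cis-sEV. Mesenchyme miRNAs (1573 to 5022 against 1085 to 2794 CPM) and leukocyte miRNAs (260 to 362 against 244 to 561 CPM) overlapped between the groups, and the part of these sets in the results on the family was not tested.

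Before TMM scaling, the family made up a larger share of the miRNA reads in every Cis-sEV library than in any Ctrl-sEV library, and with TMM scaling its summed 5p reads did not differ detectably. Its 6 members together took 7.51%, 7.57% and 7.31% of the reads in Cis-sEV (7.46% ± 0.137, SD, n = 3) and 5.83%, 5.99% and 5.50% in Ctrl-sEV (5.77% ± 0.247, n = 3). The two-sided exact permutation test gave p = 0.1, the smallest value that 3 against 3 libraries allow. Nearly all of these reads were 5p arms. With TMM scaling, the 5p members summed to 1 row had a log2 fold change of -0.00828 (SE 0.12, adjusted p 0.975 from edgeR). Of the 6 members, 5 had enough reads to be tested, and miR-99a-3p did not. Among the tested members 1, miR-100-3p, was called higher and none was called lower, while 4 were higher and 1 lower without overlap between the groups. Over all tested miRNAs, 37.7% were higher and 12.5% lower without overlap. The other 4 tested members did not pass both limits of the call, and 1 call among 5 is no more than the 23.5% called higher over the whole table.

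**Figure D1:**
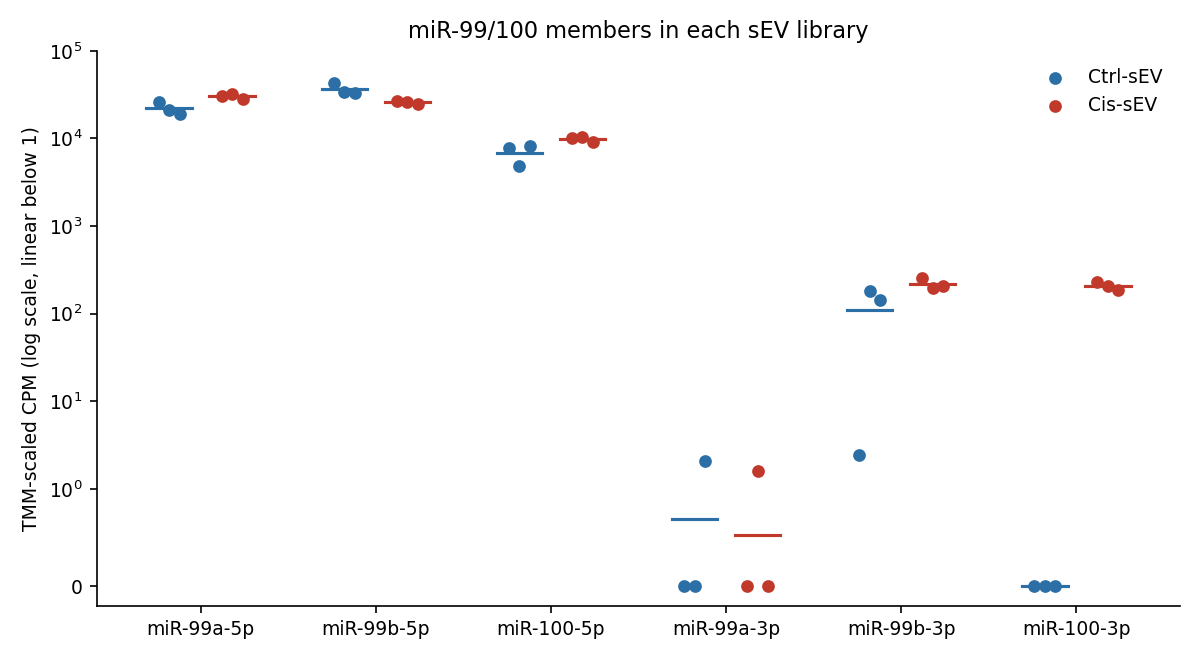
TMM-scaled CPM (log axis, linear below 1) of the 6 miR-99/100 members in each Ctrl-sEV library (blue) and Cis-sEV library (red), with a bar at each group's mean of 3. miR-99a-5p, miR-100-5p, miR-99b-3p and miR-100-3p lie higher in every Cis-sEV library, miR-99b-5p lies lower, and miR-100-3p is at 0 in the 3 Ctrl-sEV libraries.

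Among the 5p arms, miR-99a-5p was the 9th and miR-99b-5p the 11th most abundant miRNA of Cis-sEV, whereas in Ctrl-sEV miR-99b-5p was the 7th and miR-99a-5p the 14th. The mature members are 21 or 22 bases long, so length hardly enters a comparison of their read levels. For miR-99a-5p, Cis-sEV gave 60556, 60202 and 59038 reads, and Ctrl-sEV gave 10739, 15038 and 9117. On the TMM-scaled scale this was 30480, 31909 and 27928 CPM (30106 ± 2017, SD, n = 3) against 26182, 21035 and 18851 CPM (22023 ± 3764). Each Cis-sEV library was above each Ctrl-sEV library. The log2 fold change was 0.45 (SE 0.16), and with an adjusted p of 0.0710 from edgeR miR-99a-5p was not called.

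miR-100-5p was the least abundant of the 5p members in all 6 libraries, and stood 29th in Cis-sEV but 34th in Ctrl-sEV. It had 20117, 19715 and 19293 reads in Cis-sEV and 3151, 3427 and 3918 in Ctrl-sEV. Its TMM-scaled levels were 10126, 10450 and 9127 CPM (9901 ± 690) in Cis-sEV and 7682, 4794 and 8101 CPM (6859 ± 1801) in Ctrl-sEV. The groups did not overlap, and Ctrl-sEV replicate 2 was the lowest library. With a log2 fold change of 0.53 (SE 0.22) and an adjusted p of 0.107 from edgeR, miR-100-5p was not called. When miR-99a-5p and miR-100-5p, which differ by 1 base, were summed, a step chosen after seeing the data, the log2 fold change was 0.47 with an adjusted p of 0.0539 from edgeR.

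miR-99b-5p lay on the other side. It had 52972, 49642 and 51933 reads in Cis-sEV and 17584, 24431 and 16004 in Ctrl-sEV. This was 26663, 26312 and 24567 TMM-scaled CPM (25847 ± 1122) in Cis-sEV against 42871, 34174 and 33091 CPM (36712 ± 5361) in Ctrl-sEV. Every Ctrl-sEV library was above every Cis-sEV library. The log2 fold change was -0.51 (SE 0.15) with an adjusted p of 0.0349 from edgeR, which is within the limit on p and short of the limit on the fold, so miR-99b-5p was not called lower. Its adjusted p from edgeR passed 0.05 without Cis-sEV replicate 1 (0.0872), 2 (0.0639) or 3 (0.182). It also did with total counts (0.298) and with the replicate number as a block (0.161). The same held for DESeq2 (0.449) and for limma-voom without (0.0608) and with group weights (0.0503). In the other alternatives that kept miR-99b-5p as its own row, the adjusted p was within the limit.

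The zero point of these fold changes depended on the scaling of the libraries. A change of scaling moves abundant miRNAs by nearly the same amount. The order of the 5p members and their distance from the median could therefore hardly change, and their constancy is no test of them. Over 5 scalings (TMM, TMMwsp, total counts, DESeq2 size factors and upper quartile) the median of the tested miRNAs ranged from 0.22 to 0.79. The log2 fold change ranged from 0.23 to 0.81 for miR-99a-5p, from 0.31 to 0.89 for miR-100-5p and from -0.73 to -0.15 for miR-99b-5p. Taken relative to the median, miR-99a-5p lay 0.01 to 0.02 above it and miR-100-5p 0.09 to 0.10 above it. miR-99b-5p lay below the median in all 5, at -0.95 to -0.94 relative to it. Thus in these 5 fits miR-99a-5p and miR-100-5p stood close to the middle of the tested miRNAs, and miR-99b-5p stood well under it. The middle itself moved with the method and with the filter. With limma-voom the median was 1.42, with miR-99a-5p at 0.47, miR-100-5p at 0.60 and miR-99b-5p at -0.48. With DESeq2, fitted without the filter and so over more miRNAs, the median was 1.45, and the members were at 0.39, 0.47 and -0.57. In edgeR with no filter the median was 2.68, and they were at 0.38, 0.47 and -0.57. Medians without the filter are not over the same miRNAs as the others. With the replicate number as a block in edgeR the median was 1.55, and they were at 0.46, 0.56 and -0.50.

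The make-up of the family was compared within each library, where no scaling enters. miR-99a-5p took 45.3%, 46.5% and 45.3% of the summed 5p reads in Cis-sEV (45.7% ± 0.664) and 34.1%, 35.1% and 31.4% in Ctrl-sEV (33.5% ± 1.90). miR-99b-5p took 39.6%, 38.3% and 39.9% in Cis-sEV (39.3% ± 0.837) and 55.9%, 57.0% and 55.1% in Ctrl-sEV (56.0% ± 0.926). The leading member thus differed between the groups, miR-99a-5p in the 3 Cis-sEV libraries and miR-99b-5p in the 3 Ctrl-sEV libraries. miR-100-5p took 15.1%, 15.2% and 14.8% in Cis-sEV (15.03% ± 0.204) and 10.0%, 7.99% and 13.5% in Ctrl-sEV (10.5% ± 2.78). The differences were 12.2 percentage points for miR-99a-5p, -16.7 for miR-99b-5p and 4.53 for miR-100-5p. For each of the 3 shares the groups did not overlap and the two-sided exact permutation test gave p = 0.1, also 0.1 after adjustment over the 3 shares, the smallest this design allows. The 3 shares sum to 100% and are not independent.

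**Figure D2:**
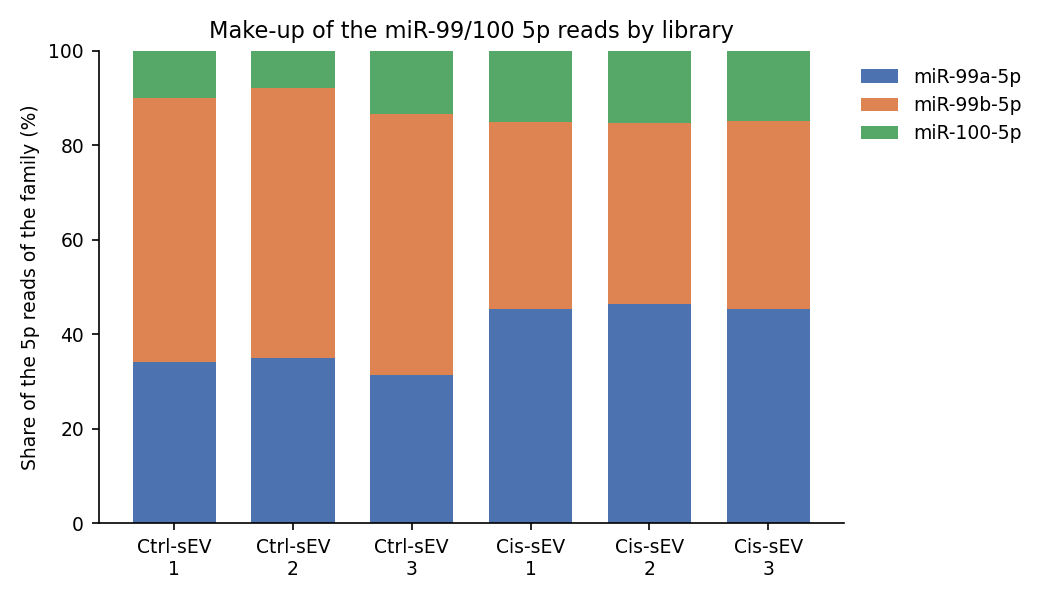
Share of the summed 5p reads of the family (%, vertical axis) taken by miR-99a-5p, miR-99b-5p and miR-100-5p in each of the 3 Ctrl-sEV and 3 Cis-sEV libraries. miR-99b-5p fills 55.1% to 57.0% of each Ctrl-sEV bar and 38.3% to 39.9% of each Cis-sEV bar.

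As ratios, there were 1.14, 1.21 and 1.14 reads of miR-99a-5p for each read of miR-99b-5p in Cis-sEV and 0.611, 0.616 and 0.570 in Ctrl-sEV, a 1.95-fold difference. For miR-100-5p over miR-99b-5p the ratios were 0.380, 0.397 and 0.371 against 0.179, 0.140 and 0.245, a 2.09-fold difference. Both ratios had p = 0.1 in the two-sided exact permutation test with no overlap of the groups. The members that differ by 1 base kept no such gap. The ratio of miR-99a-5p to miR-100-5p was 3.01, 3.05 and 3.06 in Cis-sEV and 3.41, 4.39 and 2.33 in Ctrl-sEV, where the groups overlapped (two-sided exact permutation test, p = 0.7). The 3 Cis-sEV libraries gave almost the same ratio, while those of Ctrl-sEV spread to both sides of it.

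The 3p arms showed a different picture for each hairpin. miR-100-3p, the rarer arm of Mir100, was read in every Cis-sEV library and in no Ctrl-sEV library. It had 451, 389 and 388 reads in Cis-sEV, 227, 206 and 184 TMM-scaled CPM (206 ± 21.7, SD, n = 3), and 0 reads in the 3 Ctrl-sEV libraries. In the Ctrl-sEV libraries 3 reads, the count set in place of 0 as an approximate limit, would be 4.17 to 5.67 CPM before TMM scaling. On that scale the Cis-sEV libraries had 252, 226 and 216 CPM. With 3 reads over the group in place of 0, miR-100-3p was 110-fold higher in Cis-sEV, taken here as an approximate lower bound. edgeR called miR-100-3p higher with an adjusted p of 0.00993. The call was lost with any 1 Cis-sEV library left out, where the adjusted p from edgeR was 0.0761 without replicate 1, 0.0667 without replicate 2 and 0.0565 without replicate 3. The bound on the fold was 91.8, 101 and 123 in these 3 settings, and 64.9 without Ctrl-sEV replicate 2. The authors had picked miR-100-3p on these same samples, so its direction is no independent evidence.

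The share of the 3p arm within Mir100 sets these reads against the 5p arm of the same hairpin in the same library. It was 2.19% (95% Wilson interval 2.00% to 2.40%), 1.93% (1.75% to 2.13%) and 1.97% (1.79% to 2.18%) in the Cis-sEV libraries, on average 2.03% ± 0.139 (SD, n = 3). For each 3p read there were 44.6, 50.7 and 49.7 reads of the 5p arm. In Ctrl-sEV the share was 0 of 3151, 0 of 3427 and 0 of 3918 reads. With 3 reads in place of 0 it would be 0.0952%, 0.0875% and 0.0766%. Over the group, 3 reads in place of 0 of 10496 would be 0.0286%, and the pooled share in Cis-sEV was 71.2-fold that value. The 95% Wilson interval for 0 of 10496 reads reaches further, to 0.0366%. The two-sided exact permutation test gave p = 0.1, the smallest possible. Reads copied by PCR could not be separated from independent molecules, and the intervals and limits cover counting error only, while libraries of 1 group differed by more than counting error.

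For Mir99b both arms were read in all 6 libraries. miR-99b-3p had 512, 365 and 438 reads in Cis-sEV (258, 193 and 207 TMM-scaled CPM, 219 ± 33.8) and 1, 129 and 69 reads in Ctrl-sEV (2.44, 180 and 143 CPM, 109 ± 93.8). Ctrl-sEV replicate 1 stood far below the other two libraries of its group. The log2 fold change of 1.01 (SE 1.25) had an adjusted p of 0.664 from edgeR, and miR-99b-3p was not called. It was 0.37 without Ctrl-sEV replicate 1, 1.55 without Ctrl-sEV replicate 2 and 2.35 with limma-voom, none of them called. The 3p share was 0.957%, 0.730% and 0.836% in Cis-sEV (0.841% ± 0.114) and 0.00569%, 0.525% and 0.429% in Ctrl-sEV (0.320% ± 0.276). The groups did not overlap, and pooled over libraries the share was 0.844% against 0.342%, a 2.47-fold difference. On the log2 scale the ratio of 3p to 5p was 2.95 higher in Cis-sEV (two-sided exact permutation test, p = 0.1). That size rested on Ctrl-sEV replicate 1, and without it the difference was 0.82.

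The 3p arm of Mir99a was close to absent although its 5p arm was among the most abundant miRNAs of the vesicles. miR-99a-3p had 0, 3 and 0 reads in Cis-sEV and 0, 0 and 1 in Ctrl-sEV. Pooled over the libraries it made up 0.00167% of the Mir99a reads in Cis-sEV and 0.00287% in Ctrl-sEV. The groups overlapped (two-sided exact permutation test of the share, p = 1), and a difference was not detectable at this depth. In Cis-sEV, the order of the 3p shares was therefore Mir100, then Mir99b, then Mir99a, without overlap between the hairpins. In Ctrl-sEV that order did not hold. There Mir99b had the highest observed share in every library, though in Ctrl-sEV replicate 1 this rested on 1 read.

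**Figure D3:**
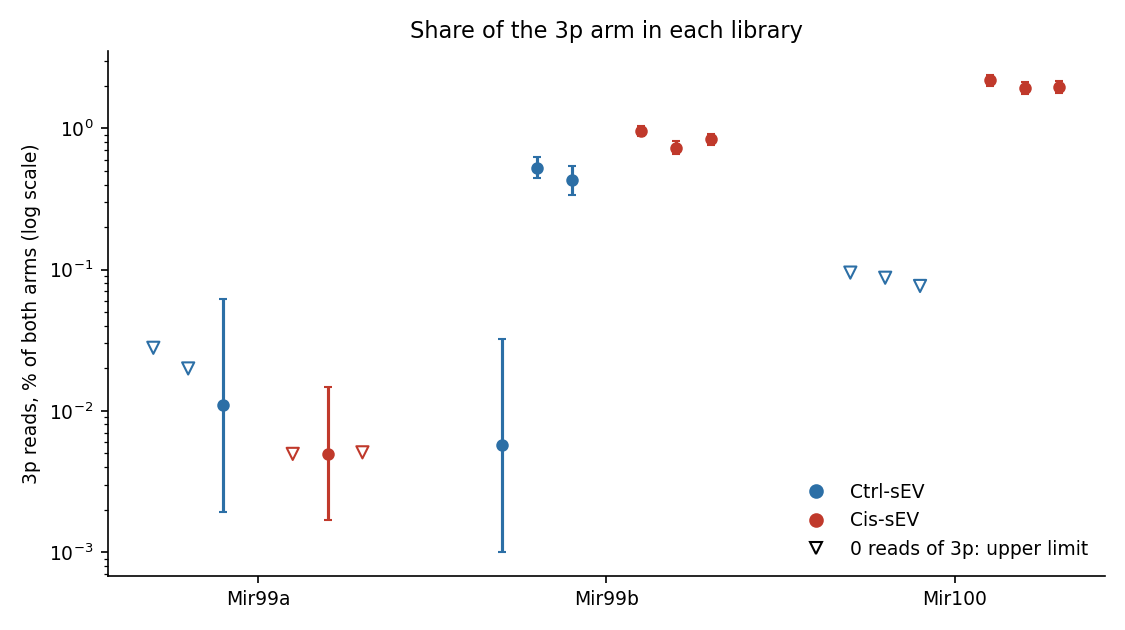
Share of the 3p arm in the reads of both arms (%, log axis) for Mir99a, Mir99b and Mir100 in each Ctrl-sEV library (blue) and Cis-sEV library (red), with 95% Wilson intervals. Where no 3p read was counted, an open triangle marks the share that 3 reads would give, an approximate upper limit. Mir100 lies at 1.93% to 2.19% in Cis-sEV and has only triangles, at 0.0952% or lower, in Ctrl-sEV.

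A missing rare arm in Ctrl-sEV was not particular to Mir100. Of 59 hairpins with both arms listed and at least 100 reads in each library, the share of the less abundant arm was higher without overlap in Cis-sEV for 18 (30.5%) and lower for 5 (8.47%). Mir100 and Mir99b were among the 18. For 8 hairpins (13.6%) the less abundant arm had 0 reads in Ctrl-sEV and was read in each Cis-sEV library. These were miR-100, miR-130b, miR-182, miR-22, miR-322, miR-369, miR-652 and miR-96, and miR-100-3p had the most reads of these 8 arms, 1228 over the 3 Cis-sEV libraries. Pooled over libraries, the share of the less abundant arm was higher in Cis-sEV for 34 of the 59 hairpins and lower for 25. The median share over the 59 was 0.844% in Cis-sEV against 0.342% in Ctrl-sEV, with Mir99b as the hairpin at the median of both groups.

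**Figure D4:**
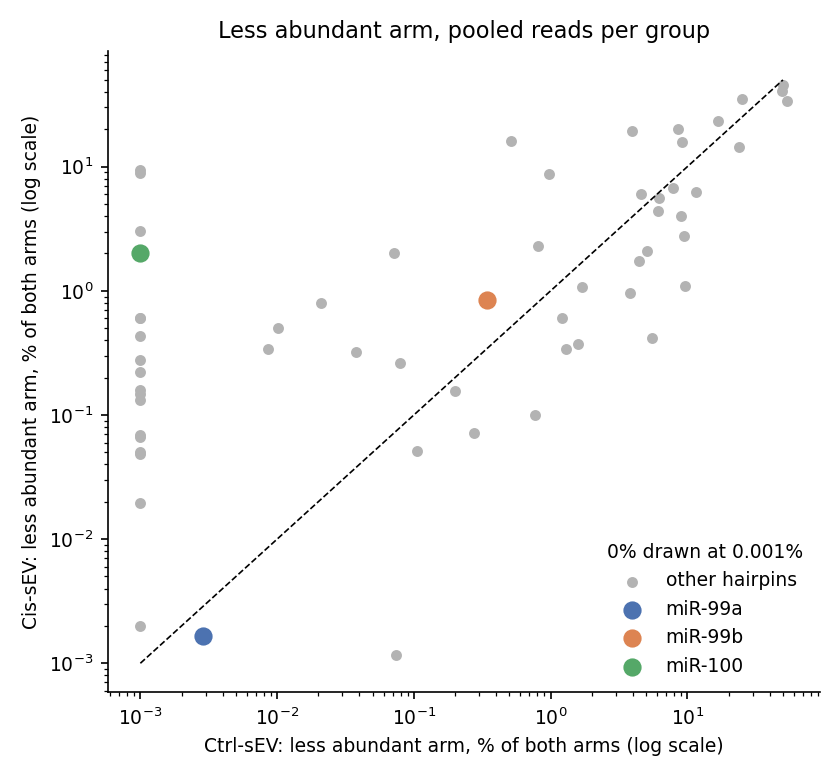
Share of the less abundant arm in the pooled reads of both arms (%, both axes log), Ctrl-sEV on the horizontal and Cis-sEV on the vertical axis, for 59 hairpins, with the line of equal shares and with 0% drawn at 0.001%. Mir100 lies on the left edge at 0% in Ctrl-sEV together with other hairpins, and Mir99b lies near the middle of the plot.

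The let-7 and miR-125 miRNAs encoded next to the family differed among themselves in how they compared with their neighbours. Downstream of Mir99a lie Mirlet7c-1, after 656 bases, and Mir125b-2. Downstream of Mir100 lie Mirlet7a-2, after 5211 bases, and Mir125b-1, and downstream of Mir99b lie Mirlet7e, after 94 bases, and Mir125a, 367 bases further on. Of the 11 mature miRNAs of these partners 8 were tested, of which 1 was called higher, 2 were called lower and 5 were not called, where 23.5% of all tested miRNAs were called higher and 6.52% lower. Without overlap, 2 were higher and 5 lower, against 37.7% and 12.5% of all tested miRNAs. Their median log2 fold change was -0.89, against 0.44 over all tested miRNAs. let-7a-5p, let-7c-5p and miR-125b-5p are each encoded by more than 1 hairpin, so their reads cannot be given to 1 locus.

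let-7c-5p, of the let-7 family known for repressing growth genes in differentiated cells, was the second most abundant miRNA in both groups. It had 102390, 102190 and 104113 reads in Cis-sEV and 56841, 71113 and 45735 in Ctrl-sEV. It fell in Cis-sEV, with a log2 fold change of -1.10 (SE 0.18) and an adjusted p of 0.00551 from edgeR. It came short of the fold limit at -0.95 when Cis-sEV replicate 3 was left out and at -0.98 when Ctrl-sEV replicate 1 was, and with total counts in place of TMM at -0.74. With DESeq2 the fold was past the limit, at -1.16, and the adjusted p was 0.0884. Set against its neighbour, there were 0.591, 0.589 and 0.567 reads of miR-99a-5p for each read of let-7c-5p in Cis-sEV and 0.189, 0.211 and 0.199 in Ctrl-sEV. This ratio needs no scaling and was 2.92-fold higher in Cis-sEV with no overlap. On chromosome 9 the ratio of miR-100-5p to let-7a-5p was 0.226, 0.219 and 0.208 against 0.0833, 0.0640 and 0.132, 2.45-fold higher with no overlap. let-7a-5p itself had a log2 fold change of -0.75 (SE 0.18) with an adjusted p of 0.0167 from edgeR, short of the fold limit.

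The chromosome 17 locus differed from the other two in this respect. The ratio of miR-99b-5p to let-7e-5p was 2.64, 3.12 and 2.06 in Cis-sEV and 2.80, 2.59 and 2.56 in Ctrl-sEV, where the groups overlapped and the means were 0.970-fold apart. Here the family member and its let-7 neighbour had log2 fold changes of like size, -0.51 for miR-99b-5p and -0.44 for let-7e-5p (adjusted p 0.0842 from edgeR). miR-125a-5p, the last of this locus, had 1098, 1085 and 1220 reads in Cis-sEV and 382, 1759 and 1038 in Ctrl-sEV. It was called lower at -1.70 (SE 0.38, adjusted p 0.0140 from edgeR), with Ctrl-sEV replicate 1 well under the other two libraries in reads. This call was lost without Cis-sEV replicate 2 (adjusted p 0.0522 from edgeR), Cis-sEV replicate 3 (0.0913), Ctrl-sEV replicate 2 (0.0724) or Ctrl-sEV replicate 3 (0.0613). It was also lost with total counts (0.0532), DESeq2 (0.0539), limma-voom (0.0545) and the replicate block (0.0596).

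miR-125b-5p, shared by the other loci and known for its role in p53 signalling, had 33679, 29461 and 35797 reads in Cis-sEV and 2315, 8492 and 4024 in Ctrl-sEV. The fitted log2 fold change was 0.94 (SE 0.26, adjusted p 0.0298 from edgeR), just short of the fold limit, and miR-125b-5p was not called. Without Ctrl-sEV replicate 2 it was 1.30 and with total counts 1.24, where miR-125b-5p was called higher, and without Ctrl-sEV replicate 1 it was 0.64. The ratio of miR-99a-5p to miR-125b-5p overlapped between the groups, at 1.80, 2.04 and 1.65 against 4.64, 1.77 and 2.27. So did that of miR-100-5p, at 0.597, 0.669 and 0.539 against 1.36, 0.404 and 0.974.

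**Figure D5:**
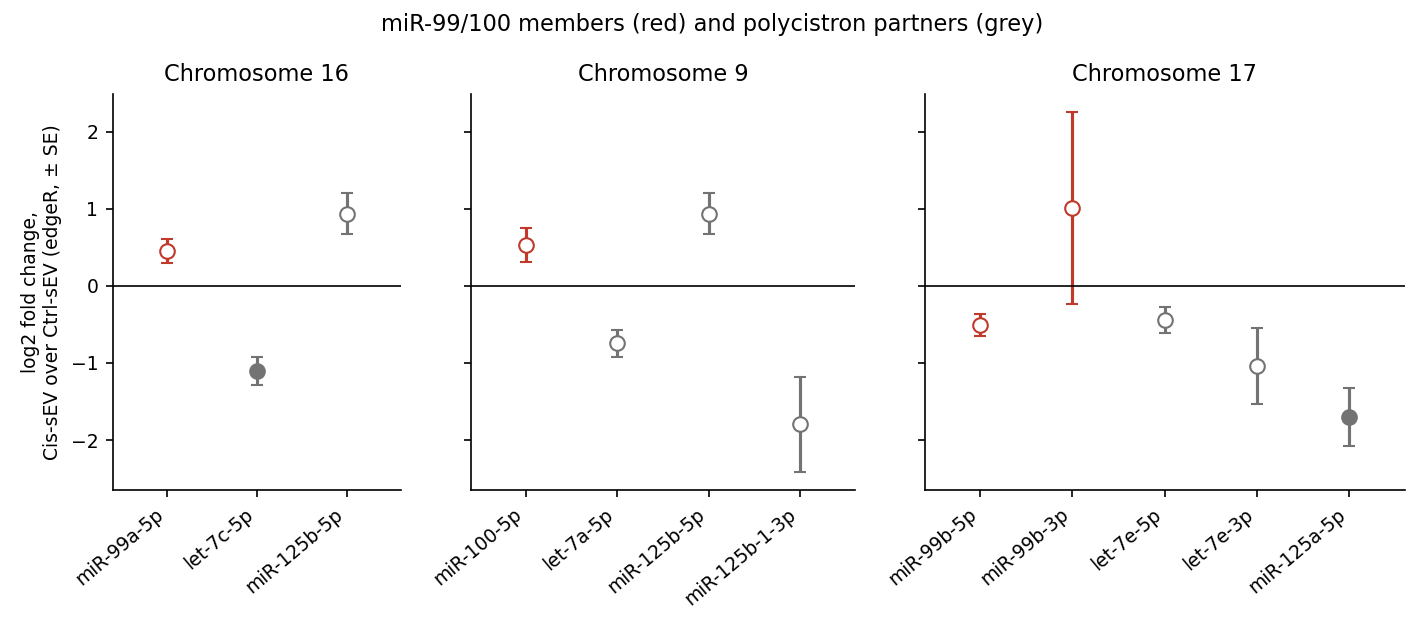
Log2 fold change of Cis-sEV over Ctrl-sEV (edgeR, ± SE) for members of the family (red) and their neighbours (grey) at the loci on chromosomes 16, 9 and 17, filled where called. miR-99a-5p and miR-100-5p lie above 0 with the let-7 miRNA of their locus below 0, while miR-99b-5p and let-7e-5p both lie below 0. miR-125b-5p is drawn at both loci that encode it. Arms with 0 reads in a group are not drawn, nor are miR-99a-3p and miR-125a-3p, which were not tested.

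Arms of the neighbours also differed in the way that Mir100 did, and in the opposite way. miR-125b-2-3p had 34, 22 and 46 reads in Cis-sEV and 0 in the 3 Ctrl-sEV libraries, and was called higher with an adjusted p of 0.00530 from edgeR. The call was lost with limma-voom (adjusted p 0.0866) and with the replicate block (0.161 from edgeR), and without Cis-sEV replicate 1 or 3 the arm was not tested. miR-125b-1-3p, by contrast, made up 0.640%, 0.537% and 0.498% of its reads and those of the shared 5p arm in Cis-sEV, against 5.43%, 1.80% and 4.87% for Ctrl-sEV, lower in Cis-sEV without overlap. Its log2 fold change was -1.80 (SE 0.62), and with an adjusted p of 0.0639 from edgeR it was not called. It passed the limit without Ctrl-sEV replicate 1 (adjusted p 0.0491 from edgeR), without Ctrl-sEV replicate 2 (0.0404), with upper-quartile factors (0.0392), with DESeq2 (0.0228) and with at least 10 reads in 3 libraries (0.0490). The 3p share of let-7e overlapped between the groups, at 3.32%, 6.73% and 3.72% against 9.85%, 4.69% and 4.41%.

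The miR-10 family is the closest relative of miR-99/100 by sequence, with a seed that starts with the same 4 letters.
mmu-miR-10a-5p: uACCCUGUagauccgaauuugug
mmu-miR-10b-5p: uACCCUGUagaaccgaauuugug
Both were rare in these vesicles. miR-10a-5p had 37, 68 and 150 reads in Cis-sEV and 78, 38 and 74 in Ctrl-sEV, and miR-10b-5p had 38, 23 and 71 against 32, 13 and 104. Neither was called, with log2 fold changes of -1.65 (SE 1.11, adjusted p 0.351 from edgeR) and -2.26 (SE 1.33, adjusted p 0.275).

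The miRNAs with the profile most like each member were found by the root mean square difference of centred log2(CPM + 1) values over the 6 libraries, and the members did not share a neighbour. Closest to miR-99a-5p were miR-22-3p (0.108), miR-130b-5p (0.120) and miR-23a-3p (0.140). For miR-99b-5p they were miR-139-5p (0.0524), let-7d-5p (0.0934) and miR-183-5p (0.0967), the last of these a hair cell miRNA. miR-100-5p was closest to miR-143-3p (0.161), miR-31-5p (0.168) and miR-872-3p (0.171). For miR-100-3p they were miR-344-3p (0.242), miR-153-3p (0.370) and miR-34c-3p (0.472). miR-99b-3p had no close neighbour by this measure, with miR-154-5p at 0.676 the nearest of those with a miRBase name.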

How the data were processed

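Small RNA of cochlear explant sEV was measured in 3 Cis-sEV and 3 Ctrl-sEV libraries, grouped by the treatment in their labels. RNA short enough to be miRNA was cut from a gel and sequenced with DNBSEQ. The authors used Bowtie2 for alignment to GRCm38.p6 and deposited counts per mature miRNA, with no normalization. Each read was given to 1 RNA class with miRNAs first, and how reads of near-identical miRNAs were divided is not given in the sources used here. The authors' group means, also deposited, were not used.

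Counts were tested with edgeR 4.0.16 in R 4.3.3 by the quasi-likelihood test, with TMM factors, filterByExpr and Benjamini-Hochberg adjustment over 353 miRNAs. This filter asked for the CPM of 10 reads at the median depth in at least 3 libraries, and for 15 reads in all. The MA-plot test of the study has no spread between replicates and was not used. TMM factors were 1.10 to 1.18 for Cis-sEV libraries and 0.762 to 0.997 for Ctrl-sEV libraries. A level of 3 reads was, before TMM scaling, 1.67 to 1.74 CPM in the deeper Cis-sEV libraries and 4.17 to 5.67 CPM in the Ctrl-sEV libraries. Shares of an arm or member within a library have Wilson intervals and two-sided exact permutation tests (scipy 1.17.1). The code was tested on simulated data. No pair of same-group libraries agreed within sampling noise (chi-square per degree of freedom 51.2 to 91.5).

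Alternatives were other scalings, other filters, DESeq2 1.42.0, voom of limma 3.58.1 without and with group weights, no limit on the fold, the replicate number as a block, miRBase names only, 5p members of 1 seed summed, 0.5 added to both arms, each library left out in turn and, chosen after seeing the data, miR-99a-5p and miR-100-5p summed. miRNAs were named by rule: the members, the miRNAs of their polycistrons, the miR-10 family, and the 3 miRNAs with the profile most like each member, with pseudocount 1. The other hairpins with an absent arm were named after their values were seen. Members and lists were chosen with earlier results of these data known. The mature sequences are from RefSeq (GRCm38.p6), as are the hairpins of Mir99a and Mir100. The Mir99b hairpin is from the deposited table, and gene positions are from GENCODE M21. One of the 4 listed miR-10 arms, miR-10b-3p, was not analysed here.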

Additional observations from a re-analysis of the deposited data

How the results depend on the processing

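Over all miRNAs, 106 were called (83 higher, 23 lower). Refits with 1 library left out called 53 (without Cis-sEV replicate 1) to 169 (without Ctrl-sEV replicate 3), with 40 to 144 higher and 11 to 30 lower. The number called lower was 11 with total counts and 14 with no filter. With limma-voom 43 were called, 30 higher and 13 lower. With the replicate block 24 were called, 13 higher and 11 lower, and miR-100-3p, with its bound of 110-fold, was not called (adjusted p 0.103 from edgeR). Same-numbered libraries did not deviate together (r = -0.05, -0.18 and -0.01 over 353 miRNAs). With 3 libraries per group, each centred on the mean of its group, such correlations cannot exclude pairing. The labels do not say whether the replicate numbers pair libraries. The bound for miR-100-3p ranged from 64.9 to 123 and its adjusted p from 0.00777 to 0.0761 with 1 library left out, and miR-100-3p was called in 16 of 20 alternatives. With no limit on the fold, miR-99b-5p (-0.51, adjusted p 0.0349 from edgeR) would be called lower. In the other alternatives no 5p member was called. With the 3 members from the 5p arm, which share a seed, summed before the test, the log2 fold change was -0.00828 (SE 0.12, adjusted p 0.975 from edgeR), which gives no direction. For each library left out, the difference in share stayed positive for miR-99a-5p (11.1 to 12.9 percentage points) and miR-100-5p (3.27 to 6.03) and negative for miR-99b-5p (-17.1 to -16.2). The difference in 3p share ranged from 1.95 to 2.08 percentage points for Mir100 and from -0.00382 to 0.00166 for Mir99a, where the sign turned without Ctrl-sEV replicate 3, and the log2 ratio of Mir99b from 0.82 to 4.09. Ctrl-sEV libraries had fewer reads, which limits what can be said of members with few or no reads there.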
